A study of Homo sapiens with 4 samples.

Results

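The cholesterol and fatty acid synthesis genes described here are 31 genes, chosen by gene symbol, of the 19974 symbols listed for each library: 7 enzymes of the mevalonate pathway, 11 enzymes that turn farnesyl units into cholesterol, 5 genes of SREBP control and sterol transfer, and 8 genes of fatty acid synthesis. They were followed in HCT116, an established human colorectal carcinoma cell line with an epithelial origin. In the si-NC group the cells received a scramble siRNA, and in the si-152 group an siRNA against the long noncoding RNA LINC00152, in both groups at 100 nM for 36 h, with 2 biological replicates per group. Whether the libraries kept strand was not given in the sources used here, all values come from this single cell line in culture, and LINC00152 itself was not analysed here, so that its loss under si-152 could not be read from the values.

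Cells build cholesterol from acetyl-CoA. The mevalonate pathway makes isoprenoid units from it, squalene is assembled from these units, and a chain of enzymes of the endoplasmic reticulum closes and trims the rings. Fatty acids are built from the same acetyl-CoA, then lengthened and desaturated. Most of these enzymes are under the transcription factors SREBP1 and SREBP2, encoded by SREBF1 and SREBF2, which SCAP escorts to the Golgi apparatus for cleavage when sterols are low and which INSIG1 holds back when sterols are high. In epithelial tumor cells that divide fast, both routes supply membrane lipids.

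Each of the 4 libraries listed between 14589 and 14686 genes above 0. The files name no unit, and the values were taken for FPKM, which scales the fragments of a gene by transcript length and library size. The number of reads is unknown. The most frequent ratio of the lowest values to those of si-NC replicate 1 lay between 0.949 and 1.13 in the other 3 libraries. Of 13 colorectal epithelial markers, 8 were at 1 FPKM or more in every library, among them EPCAM and KRT8, while KRT20, CDX1, VIL1, CEACAM5 and LGR5 were under 0.1 FPKM in all 4. Of 15 markers of other cell types, 13 were under 1 FPKM in every library, and COL1A1 and CD68 were above it. The 13 epithelial markers summed to 3263 and 3797 FPKM with si-NC and to 2565 and 3212 FPKM with si-152, and the 15 others to between 10.6 and 12.1 FPKM in all 4 libraries. Among the epithelial markers, KRT8, KRT18 and KRT19 were the highest, with means of 953.5, 672.8 and 1098 FPKM over the 4 libraries. From si-NC to si-152 their means changed by -25.4%, -15.3% and -16.5%, and those of CLDN3 and CLDN4 by -25.9% and -16.1%. The means of EPCAM, CDH1 and CDX2 changed by -5.5%, -1.5% and 1.1%. The part of these marker differences in the results on the 31 genes was not tested.

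The promoters of 4 genes are shown first, to let the words that SREBP target promoters are known for be seen beside the values. HSD17B7 and EBP passed the test given further on, MVK shares its start region with a gene on the opposite strand, and SREBF2 was the 1 gene, of the 27 with a promoter to search, that held the sterol regulatory element in the letters searched. Each sequence runs 5′ to 3′ on the plus strand, from 250 bases before the transcription start to 50 bases after it, in RefSeq's annotation of GRCh38.p14. Capitals mark TCACNCCAC (sterol regulatory element), CACGTG (E-box), CCAAT (NF-Y box) and GGGCGG (Sp1 box), each searched on both strands, so CCAAT also appears as ATTGG and GGGCGG as CCGCCC. The windows are chr1:162790452-162790751 for HSD17B7, chrX:48521558-48521857 for EBP, chr12:109573544-109573843 for MVK and chr22:41832855-41833154 for SREBF2.
HSD17B7: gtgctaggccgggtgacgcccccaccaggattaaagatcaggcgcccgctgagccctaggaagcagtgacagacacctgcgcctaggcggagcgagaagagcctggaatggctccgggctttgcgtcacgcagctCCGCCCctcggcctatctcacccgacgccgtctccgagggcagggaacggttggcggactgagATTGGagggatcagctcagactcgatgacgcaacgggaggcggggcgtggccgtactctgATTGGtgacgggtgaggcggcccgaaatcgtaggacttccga
EBP: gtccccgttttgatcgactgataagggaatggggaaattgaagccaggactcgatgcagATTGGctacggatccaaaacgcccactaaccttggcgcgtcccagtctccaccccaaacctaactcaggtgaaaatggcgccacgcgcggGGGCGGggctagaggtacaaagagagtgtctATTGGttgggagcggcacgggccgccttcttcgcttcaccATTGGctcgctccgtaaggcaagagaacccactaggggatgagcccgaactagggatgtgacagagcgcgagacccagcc
MVK: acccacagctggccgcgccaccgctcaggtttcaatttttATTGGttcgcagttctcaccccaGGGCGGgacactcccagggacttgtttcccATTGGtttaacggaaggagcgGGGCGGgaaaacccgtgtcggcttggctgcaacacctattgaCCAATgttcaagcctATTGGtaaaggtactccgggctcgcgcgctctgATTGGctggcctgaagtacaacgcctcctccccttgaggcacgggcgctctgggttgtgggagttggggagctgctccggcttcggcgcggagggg
SREBF2: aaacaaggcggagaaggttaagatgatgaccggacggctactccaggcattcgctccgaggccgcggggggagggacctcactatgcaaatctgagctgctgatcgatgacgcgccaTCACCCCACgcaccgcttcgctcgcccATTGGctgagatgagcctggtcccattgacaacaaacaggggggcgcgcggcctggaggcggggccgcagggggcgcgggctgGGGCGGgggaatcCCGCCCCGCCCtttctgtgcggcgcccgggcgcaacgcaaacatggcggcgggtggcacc

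Of the 31 genes, 27 matched a promoter in that table, with 37 windows in all, some of which overlap. ACAT2, SQLE, FDFT1 and FASN were not among them and were not searched. CCAAT was in 25 of the 37 windows (67.6%), against 34.6% of all 35116 windows in the table and 34.6% of the 12699 windows of genes tested here. GGGCGG was in 33 of the 37 windows (89.2%), against 45.0% of all windows and 67.9% of those of tested genes. The E-box was in 5 windows (13.5%, against 9.5% for tested genes), those of LSS, SC5D, INSIG1 and SCAP. The full sterol regulatory element was in 1 window (2.7%, against 1.1%), that of SREBF2. These are matches of letters in this window only.

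**Figure D1:**
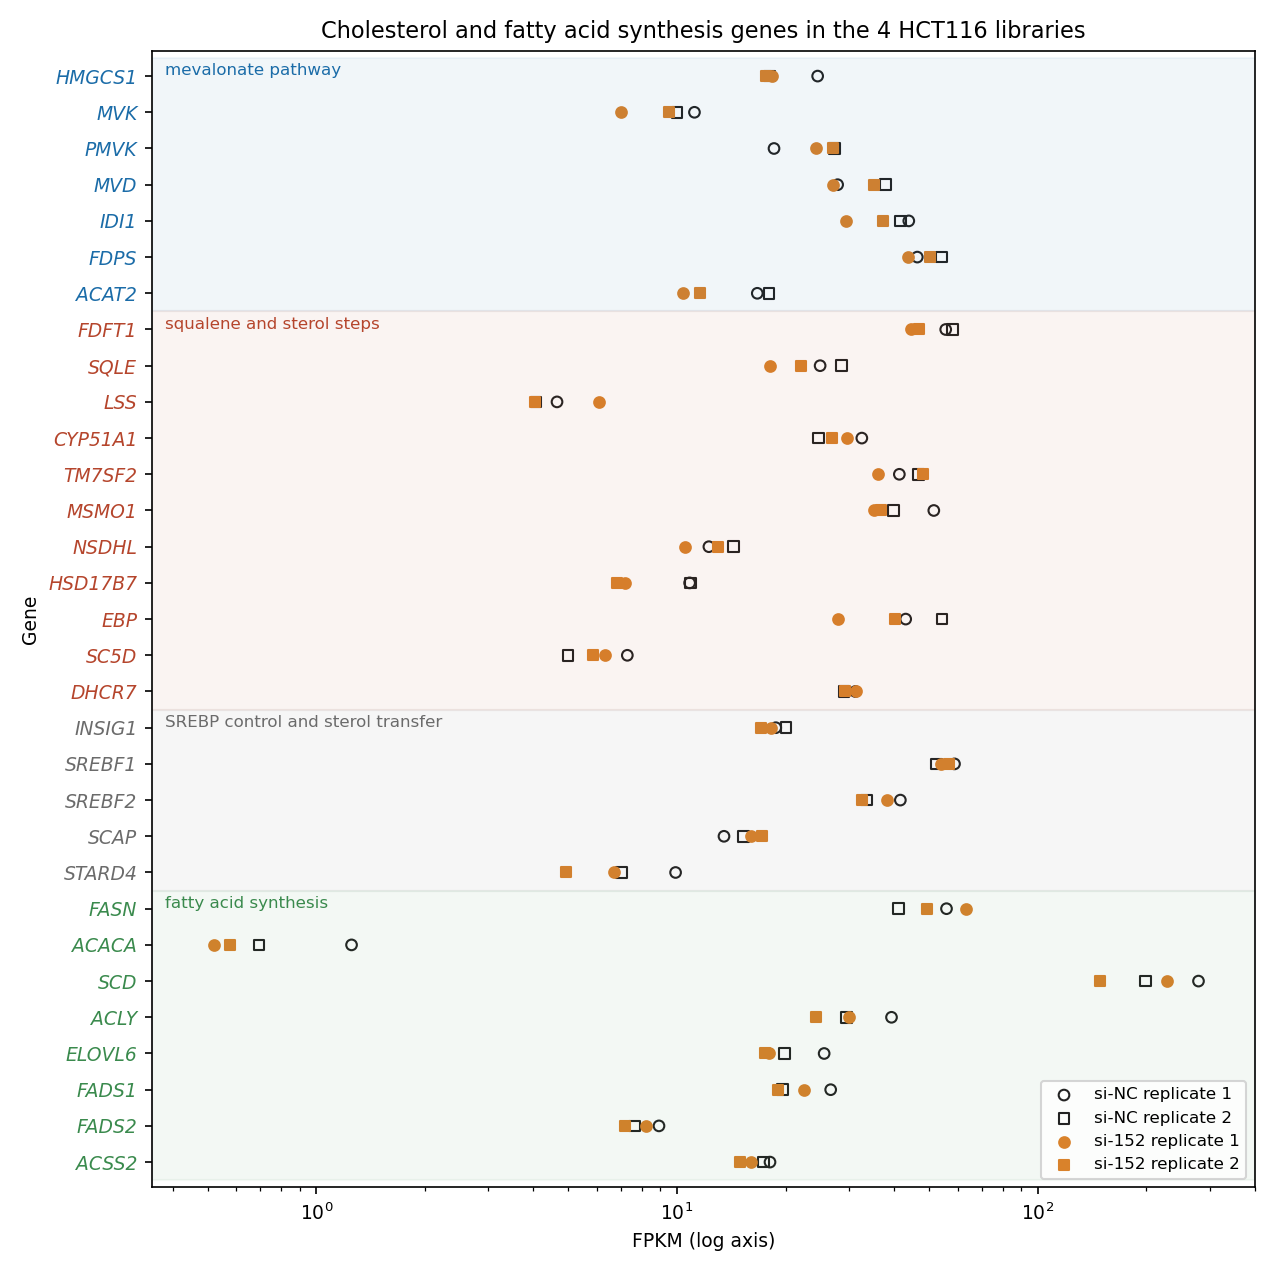
FPKM on a log axis for each of the 31 genes, with open black marks for si-NC, filled orange marks for si-152, circles for replicate 1 and squares for replicate 2. SCD stands highest, between 148.6 and 279.3 FPKM, and ACACA lowest, between 0.519 and 1.25 FPKM.

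FPKM is scaled by transcript length, so levels can be set side by side between genes. SCD, the desaturase that makes oleic acid, was the highest of the 31, with a mean of 214 FPKM over the 4 libraries. SREBF1 (55.5 FPKM), FASN (52.4), FDFT1 (51.3) and FDPS (48.7) followed, and their libraries overlapped each other. LSS (4.70 FPKM), SC5D (6.10) and STARD4 (7.14) were the lowest of the genes tested. ACACA, the acetyl-CoA carboxylase that supplies fatty acid synthase, was listed at 1.25 and 0.693 FPKM with si-NC and at 0.519 and 0.574 FPKM with si-152. It had under 1 FPKM in 3 of 4 libraries and did not enter the test, which asked for at least 1 FPKM in at least 2 libraries, so 30 of the 31 genes were tested. With that filter left out, its log2 fold change was -0.34 (SE, the standard error, 0.16, unadjusted p = 0.0918 by limma).

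The comparison of si-152 with si-NC asks which genes differ between cells given the siRNA against LINC00152 and cells given the scramble siRNA. An effect of the siRNA itself and one of the loss of LINC00152 cannot be told apart here. Fold changes are on the scale of log2(FPKM + 1), si-152 minus si-NC, from a limma fit over the 11222 genes that passed the filter. A gene is said here to have risen or fallen at an unadjusted p under 0.05, the p threshold of the study's methods. On that rule 4 of the 30 tested genes fell (ACAT2, HSD17B7, EBP and SQLE), all of them enzymes of sterol synthesis, and 0 rose. Over all tested genes 2.50% fell and 1.89% rose. With a fold above 1.5 as well, ACAT2 alone fell, where 1.06% of all tested genes fell and 0.597% rose. After Benjamini-Hochberg adjustment over all genes, 0 of the 30 passed by limma (0.0178% of all tested genes did), so each of the 4 calls is a call on the unadjusted p only. In bulk cultures, fewer cells that hold an RNA and less of it per cell cannot be told apart.

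**Figure D2:**
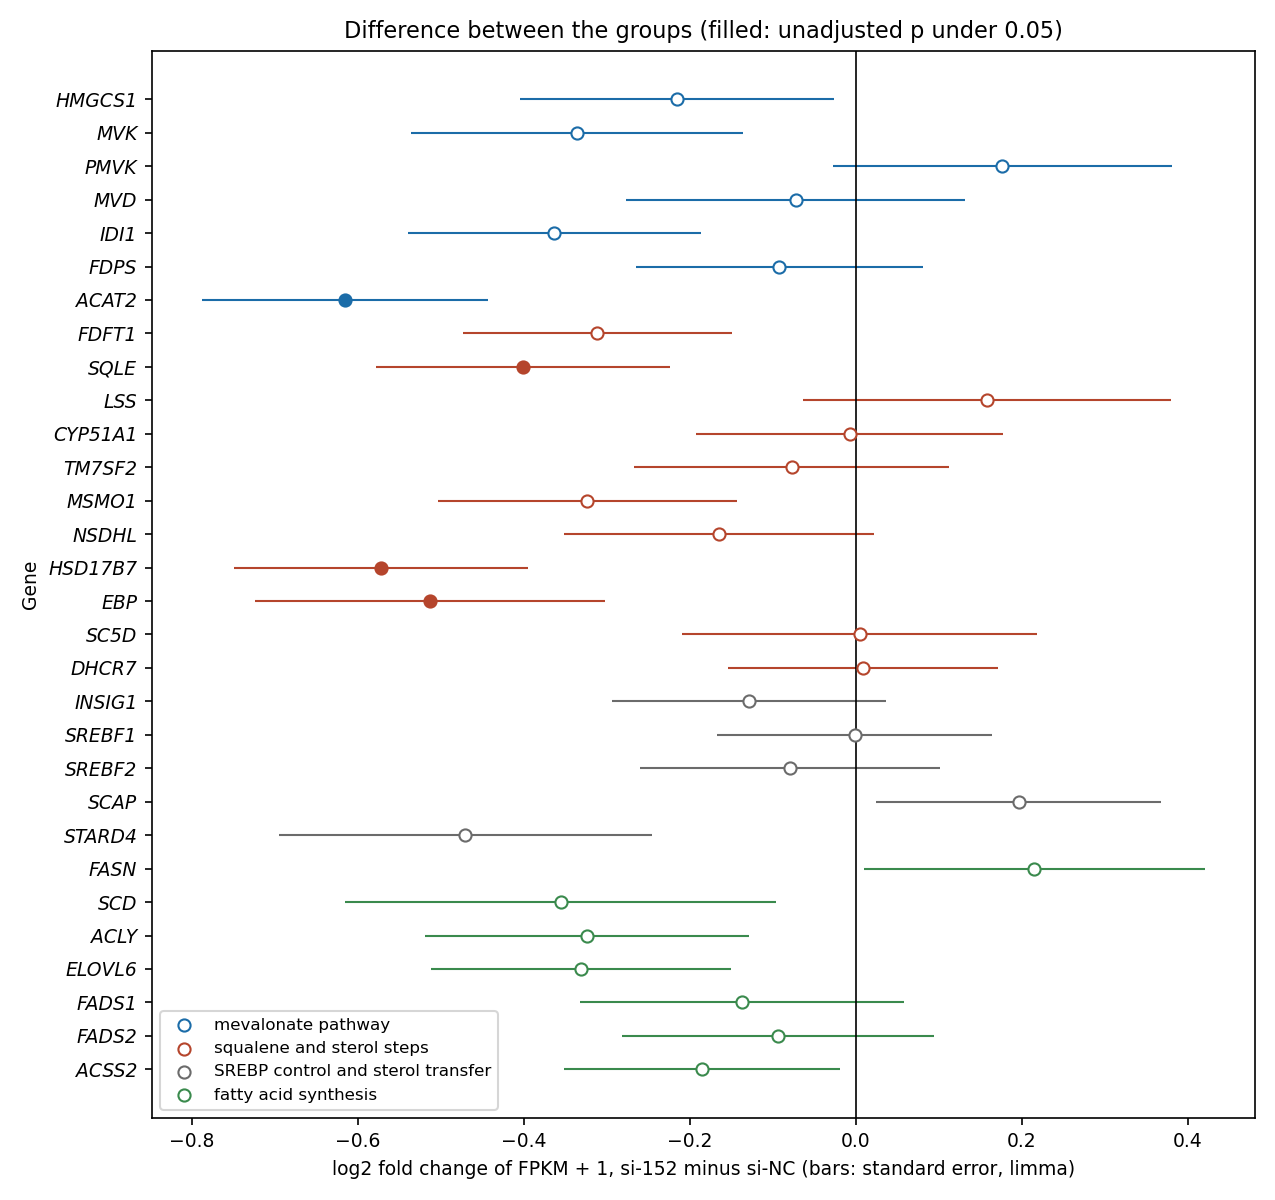
Log2 fold change of FPKM + 1 for the 30 tested genes, si-152 minus si-NC, with bars for the standard error from limma, colored by role. Filled points are the 4 genes with an unadjusted p under 0.05, ACAT2, SQLE, HSD17B7 and EBP, and 24 of the 30 points lie below 0.

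Most genes of the set had lower values in si-152. The median log2 fold change of the 30 genes was -0.15, against 0.02 for all tested genes, and 24 of the 30 values were negative. The median was -0.23 without si-NC replicate 2. The middle of the set, from the first to the third quartile, ran from -0.34 to -0.02, against -0.12 to 0.15 for all tested genes. In 12 of the 30 genes both libraries of si-152 lay below both of si-NC (13.9% of all tested genes), and in 1, SCAP, above them (16.5%). With size factors these counts were 14 and 0, against 1759 and 1791 of all 11222 tested genes. With quantile normalization they were 14 and 1, against 1864 and 1946. In each same-numbered pair, si-152 replicate 1 was set against si-NC replicate 1 and si-152 replicate 2 against si-NC replicate 2. In both pairs 21 of the 30 genes were lower (27.3% of all tested genes) and 3 were higher (35.6%), and 6 changed sign between the pairs. With size factors 22 were lower and 2 higher, against 3646 and 3787 of all 11222 tested genes. With quantile normalization 19 were lower, 2 higher and 9 split, against 3377, 3878 and 3967. The median of the set was -0.20 in pair 1 and -0.10 in pair 2, where the medians of all tested genes were -0.03 and 0.07.

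**Figure D3:**
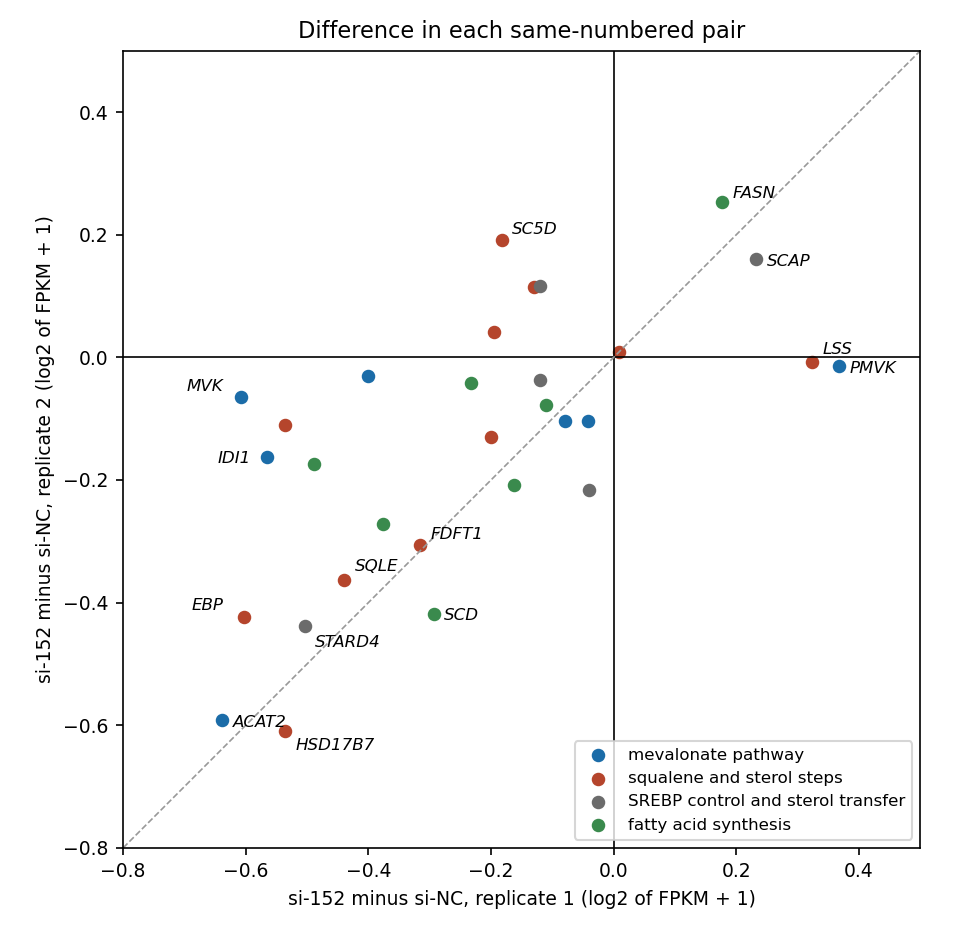
Difference between si-152 and si-NC in replicate 1 (x axis) and in replicate 2 (y axis), in log2 of FPKM + 1, for the 30 tested genes, with a dashed line where both are equal. ACAT2 and HSD17B7 lie near the line below -0.5 on both axes, IDI1 and MVK lie far to the left with small values in replicate 2, and only FASN, SCAP and DHCR7 lie above 0 on both, DHCR7 by under 0.01 (-0.01 in the fit with size factors).

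The 7 mevalonate pathway genes had a median log2 fold change of -0.22 (-0.40 without si-NC replicate 2 and -0.14 without si-152 replicate 1), and 1 of them fell. ACAT2, the cytosolic thiolase that joins acetyl-CoA units at the entry of the pathway, was at 16.7 and 18.0 FPKM with si-NC (17.3 ± 0.912, SD, n = 2) and at 10.4 and 11.6 FPKM with si-152 (11.0 ± 0.869, SD, n = 2). The groups did not overlap, and the gap between them was several times the spread within either. Its log2 fold change was -0.62 (SE 0.17, unadjusted p = 0.00551, adjusted p = 0.760 by limma), with -0.64 in pair 1 and -0.59 in pair 2, so its mean fell by 36.7%. It was the lowest value of the 30.

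ACAT2 spans bases 159760328 to 159779055 of chromosome 6 on the plus strand (GRCh38, GENCODE v29), and its exons share bases with 2 listed genes on the opposite strand. It shares 397 exon bases with TCP1, a chaperonin subunit, and 1106 with SOD2, the mitochondrial superoxide dismutase. It also shares 1458 with SOD2-OT1, a long noncoding RNA gene on the opposite strand that is not listed. TCP1 was at 97.7 and 93.3 FPKM with si-NC and at 103 and 95.0 FPKM with si-152, and SOD2 at 25.6 and 29.7 FPKM with si-NC and at 29.5 and 35.3 FPKM with si-152. Neither had a negative log2 fold change (0.05 and 0.22). Without strand, reads in the shared bases cannot be assigned to either gene, and their part in the ACAT2 values was not tested. The same limit holds for HMGCS1 and FDPS, which share 703 and 476 exon bases with antisense genes, and for other members with smaller overlaps. The antisense gene at FDPS, RUSC1-AS1, was at 0.363 FPKM in si-152 replicate 1 and at 0 FPKM in every other library. The one at HMGCS1 is not listed.

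IDI1, the isomerase that balances the pair of isoprenoid units, was at 43.9 and 41.7 FPKM with si-NC and at 29.4 and 37.2 FPKM with si-152. Both si-152 libraries were below both si-NC libraries, but the difference was -0.56 in pair 1 and -0.16 in pair 2 (log2 fold change -0.36, 95% interval -0.76 to 0.03). It was -0.20 without si-152 replicate 1, and -0.53 without si-152 replicate 2, where it passed (unadjusted p = 0.0278). MVK, mevalonate kinase, was at 11.2 and 10.0 FPKM with si-NC and at 6.99 and 9.53 FPKM with si-152, again with the larger part of the difference in pair 1 (-0.61 against -0.06). MVK shares 69 exon bases with MMAB, a vitamin B12 enzyme gene that starts next to it on the opposite strand. MMAB was at 10.4 and 10.3 FPKM with si-NC and at 6.25 and 8.36 FPKM with si-152, a log2 fold change of -0.46 (unadjusted p = 0.0403, adjusted p = 1.00 by limma).

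The other mevalonate pathway genes overlapped between the groups. HMGCS1, which makes HMG-CoA, was at 24.6 FPKM with si-NC replicate 1 and between 17.7 and 18.4 FPKM in the other 3 libraries. MVD and FDPS, the decarboxylase and the synthase of farnesyl diphosphate, had log2 fold changes of -0.07 and -0.09, with standard errors of 0.20 and 0.17. PMVK, phosphomevalonate kinase, was the 1 gene of this group with a positive value, 0.18 (95% interval -0.28 to 0.64), and it rested on pair 1 (0.37 against -0.01).

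The 11 genes of the squalene and sterol steps had a median log2 fold change of -0.17, which was -0.09 without si-152 replicate 1 and -0.30 without si-152 replicate 2, and 3 of them fell. HSD17B7, a ketosteroid reductase that acts as the ring loses its methyl groups, was at 10.8 and 10.9 FPKM with si-NC (10.9 ± 0.0539, SD, n = 2) and at 7.17 and 6.81 FPKM with si-152 (6.99 ± 0.257, SD, n = 2). The replicates of each group lay close together and the groups lay far apart. Its log2 fold change was -0.57 (SE 0.18, unadjusted p = 0.00955, adjusted p = 0.844 by limma), at -0.54 in pair 1 and -0.61 in pair 2. Without si-152 replicate 2 it was -0.54 and missed the threshold (unadjusted p = 0.0768). HSD17B7 spans bases 162790702 to 162812817 of chromosome 1 on the plus strand, and GENCODE v29 names 2 pseudogenes of it, HSD17B7P1 and HSD17B7P2, neither of which is listed in the tables. GENCODE v29 also names pseudogenes for FDPS (8), CYP51A1 (3), SCD (1) and FADS2 (1), and the values of all 5 genes are uncertain where reads fit such a copy as well.

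EBP, the isomerase that shifts a double bond in the sterol ring, was at 43.1 and 54.3 FPKM with si-NC (48.7 ± 7.94, SD, n = 2) and at 28.0 and 40.3 FPKM with si-152 (34.1 ± 8.65, SD, n = 2). The groups did not overlap, yet the gap between si-NC replicate 1 and si-152 replicate 2 was small beside the spread of either group. Its log2 fold change was -0.51 (SE 0.21, unadjusted p = 0.0364, adjusted p = 1.00 by limma), and without si-152 replicate 1 it was -0.26 and no longer passed (unadjusted p = 0.269). Without si-NC replicate 2 it was -0.35 and did not pass either (unadjusted p = 0.180). EBP spans bases 48521158 to 48528716 of chromosome X on the plus strand. SQLE, squalene epoxidase, which puts the first oxygen into squalene, was at 24.9 and 28.6 FPKM with si-NC (26.8 ± 2.58, SD, n = 2) and at 18.1 and 22.01 FPKM with si-152 (20.1 ± 2.75, SD, n = 2). Its log2 fold change was -0.40 (SE 0.18, unadjusted p = 0.0485, adjusted p = 1.00 by limma), at the edge of the threshold, and it was -0.44 in pair 1 and -0.36 in pair 2. It missed the threshold without si-NC replicate 2 (-0.31, unadjusted p = 0.226) and without si-152 replicate 1 (-0.27, unadjusted p = 0.279).

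FDFT1, squalene synthase, acts just before SQLE. It was at 55.6 and 58.1 FPKM with si-NC and at 44.5 and 46.8 FPKM with si-152, with the same difference in both pairs (-0.32 and -0.31). Its groups were well apart for their spread, but its log2 fold change of -0.31 missed the threshold (95% interval -0.67 to 0.05). MSMO1, the methylsterol monooxygenase, was at 51.5 and 39.9 FPKM with si-NC and at 35.2 and 36.9 FPKM with si-152. Its si-NC replicate 1 set most of the difference, which was -0.54 in pair 1 and -0.11 in pair 2.

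The other 6 genes of this group overlapped between si-NC and si-152. DHCR7, the last reductase before cholesterol, was at 31.2 and 29.02 FPKM with si-NC and at 31.4 and 29.2 FPKM with si-152, a log2 fold change of 0.01 (-0.01 with size factors; 95% interval -0.36 to 0.37). CYP51A1, the lanosterol demethylase, and SC5D, a sterol desaturase, were at -0.0074 and 0.0045, with opposite signs in the pairs and, with quantile normalization, the other sign overall. TM7SF2, a sterol reductase, was at -0.08, and NSDHL, the dehydrogenase that acts with MSMO1 and HSD17B7, at -0.17. LSS, which closes the rings of squalene, was at 4.65 and 4.06 FPKM with si-NC and at 6.07 and 4.03 FPKM with si-152, so that its value of 0.16 came from si-152 replicate 1.

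**Figure D4:**
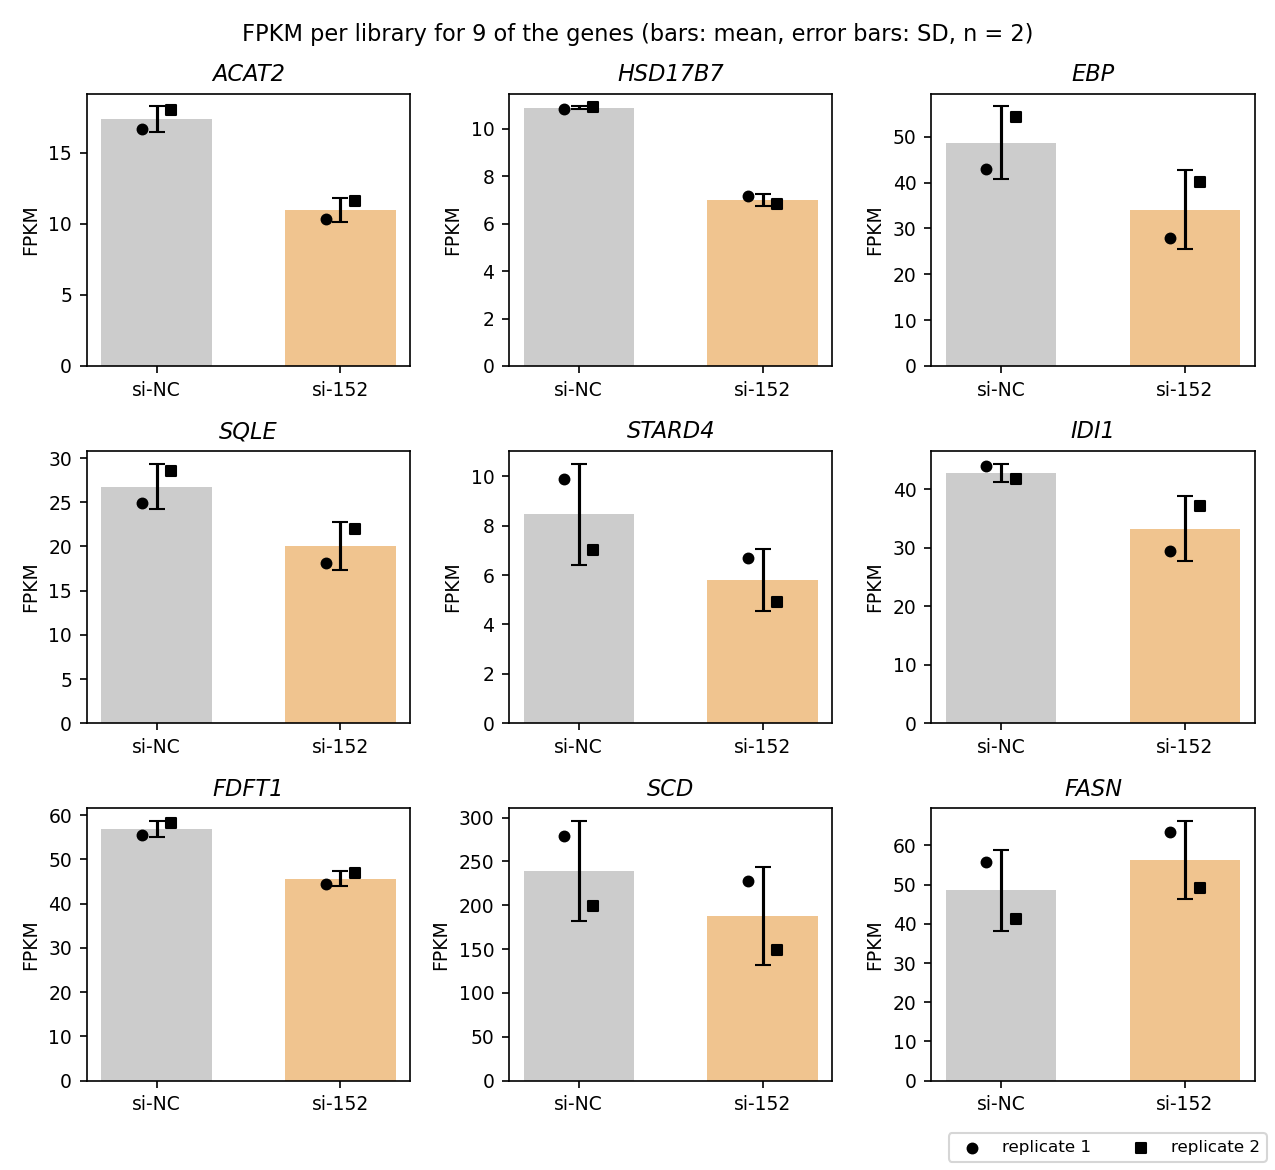
FPKM per library for 9 genes, with bars for the mean and error bars for the SD (n = 2), circles for replicate 1 and squares for replicate 2. These genes were picked after their values were seen: the 4 that fell, 3 others whose groups did not overlap, and SCD and FASN, whose groups overlapped.

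Among the genes of SREBP control and sterol transfer, 0 of 5 passed the test, and their median log2 fold change was -0.08 (0.07 without si-NC replicate 1, -0.17 without si-152 replicate 1). SREBF1 was at 58.8 and 52.3 FPKM with si-NC and at 54.1 and 56.8 FPKM with si-152, and SREBF2 at 41.6 and 33.5 FPKM with si-NC and at 38.2 and 32.6 FPKM with si-152. Both overlapped between the groups. The log2 fold change of SREBF1 was -0.0014 (95% interval -0.37 to 0.37), and 0.04 with quantile normalization. That of SREBF2 was -0.08 (95% interval -0.49 to 0.33). Fold changes within those intervals were not excluded here. INSIG1, itself a target of SREBP, was at 18.8 and 20.1 FPKM with si-NC and at 18.2 and 17.1 FPKM with si-152, a small difference in which the groups did not overlap (-0.13). SCAP was at 13.5 and 15.3 FPKM with si-NC and at 16.04 and 17.2 FPKM with si-152, the 1 gene of the set with both si-152 libraries above both si-NC libraries (0.20, 95% interval -0.19 to 0.58).

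STARD4, a carrier of cholesterol between membranes and a known target of SREBP2, had the lowest log2 fold change of this group. It was at 9.91 and 7.02 FPKM with si-NC and at 6.69 and 4.92 FPKM with si-152, so the groups met closely between si-NC replicate 2 and si-152 replicate 1. Its log2 fold change was -0.47 (SE 0.22, unadjusted p = 0.0641, adjusted p = 1.00 by limma), much the same in both pairs (-0.50 and -0.44). With size factors it was -0.49 (unadjusted p = 0.0410) and with quantile normalization -0.52 (unadjusted p = 0.0221), both past the threshold. Leaving out 1 library moved it both ways. It was -0.25 without si-NC replicate 1 (unadjusted p = 0.336) and -0.28 without si-152 replicate 2 (unadjusted p = 0.374), but -0.69 without si-NC replicate 2 (unadjusted p = 0.00757) and -0.66 without si-152 replicate 1 (unadjusted p = 0.0409).

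Of the fatty acid synthesis genes, 0 of 7 tested passed, and 6 of the 7 were lower in both pairs. With the replicate number added to the fit as a block, 3 of the 7 fell (SCD, ACLY and ELOVL6), and 0 passed after adjustment. In that fit 912 of all 11222 tested genes fell and 981 rose. Their median log2 fold change was -0.19, but it was -0.35 without si-NC replicate 2, -0.11 without si-NC replicate 1 and -0.05 without si-152 replicate 2. SCD was at 279 and 199 FPKM with si-NC and at 228 and 149 FPKM with si-152, so the groups overlapped although si-152 was lower in both pairs (-0.29 and -0.42). Its log2 fold change of -0.36 was -0.050 without si-152 replicate 2 and -0.11 without si-NC replicate 1, but -0.60 without si-NC replicate 2 (unadjusted p = 0.0773) and -0.66 without si-152 replicate 1 (unadjusted p = 0.0129). ACLY, which makes cytosolic acetyl-CoA from citrate, was at 39.3 and 29.6 FPKM with si-NC and at 30.1 and 24.3 FPKM with si-152, and again the spread within a group was about as large as the difference (-0.32, 95% interval -0.76 to 0.11). Without si-NC replicate 1 it was -0.12 and without si-152 replicate 2 -0.18, and without si-NC replicate 2 it was -0.52 and passed (unadjusted p = 0.0414). ELOVL6, the elongase of palmitate, was at 25.6 and 19.9 FPKM with si-NC and at 17.9 and 17.5 FPKM with si-152, without overlap (-0.33, 95% interval -0.74 to 0.07). It was -0.16 without si-NC replicate 1, and -0.50 without si-NC replicate 2, where it passed (unadjusted p = 0.0453). ACSS2, which makes acetyl-CoA from acetate, was at 18.1 and 17.4 FPKM with si-NC and at 16.1 and 14.9 FPKM with si-152, also without overlap (-0.19). The desaturases of polyunsaturated fatty acids, FADS1 and FADS2, were at -0.14 and -0.09.

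FASN, the fatty acid synthase, had the highest log2 fold change of the set, but its size changed when 1 library was left out. It was at 55.9 and 41.2 FPKM with si-NC and at 63.3 and 49.3 FPKM with si-152, higher in both pairs (0.18 and 0.25), but the groups overlapped and the value did not pass (0.22, 95% interval -0.25 to 0.68). It was -0.0010 without si-NC replicate 2 and 0.037 without si-152 replicate 1, against 0.43 without si-NC replicate 1 and 0.39 without si-152 replicate 2. Each of these fits left 1 replicate number unmatched between the groups, and FASN was higher in replicate 1 by 0.43 in si-NC and 0.36 in si-152. All 7 tested fatty acid synthesis genes were higher in replicate 1 than in replicate 2 in both groups, as were 14 of the 30 genes of the set and 44.2% of all tested genes. The median difference of the 7 genes between replicate 1 and replicate 2 was 0.40 in si-NC and 0.23 in si-152, larger in size than their median difference between the groups. For the 7 mevalonate pathway genes these replicate differences were -0.10 and -0.20, in the opposite direction. Whether the replicate numbers stand for a shared culture or day is not said in the labels. With the replicate number added to the fit as a block, the unadjusted p was 0.0131 for SCD, 0.0159 for ACLY and 0.0230 for ELOVL6 by limma. Their adjusted p was 0.182, 0.194 and 0.221 by limma, and FASN did not pass (unadjusted p = 0.0783 by limma). What the replicate numbers stand for was not tested.

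Another 120 genes of lipid metabolism, in 6 lists beside the 31, were set next to them, and 104 of them were tested. At an unadjusted p under 0.05, 5 of the 104 fell and 2 rose, where 2.50% of all tested genes fell and 1.89% rose. After adjustment over all genes, 0 of the 104 passed by limma, so each call below is on the unadjusted p only. Of 7 tested genes of other sterol steps, 1 fell and 0 rose, with a median of 0.06. C14orf1, also named ERG28, the scaffold that holds sterol enzymes together, fell by 0.43 on the log2 scale, from 35.3 and 34.2 FPKM to 22.1 and 29.3 FPKM (unadjusted p = 0.0410 by limma). Of 13 tested genes of the isoprenoid branch, which leads from farnesyl diphosphate to prenylated proteins, dolichol and coenzyme Q, 0 rose and 0 fell, with a median of 0.03.

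Of 20 tested genes of sterol uptake, transport and storage, 2 fell and 1 rose, with a median of -0.04. SCARB1, the receptor for high-density lipoprotein, fell from 51.3 and 44.7 FPKM to 31.3 and 36.0 FPKM (log2 fold change -0.50, unadjusted p = 0.0161, adjusted p = 0.964 by limma). LIPA, the lysosomal lipase that frees cholesterol from its esters, fell from 32.9 and 25.6 FPKM to 21.2 and 18.8 FPKM (-0.52, unadjusted p = 0.0188 by limma). OSBPL5, a lipid transfer protein of the endoplasmic reticulum, rose from 6.003 and 5.34 FPKM to 10.2 and 9.43 FPKM (0.70, unadjusted p = 0.00386, adjusted p = 0.724 by limma), the largest value in size among the 30 genes and these 104.

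Of 14 tested genes of SREBP processing and degradation, 1 rose and 0 fell, with a median of -0.02. ERLIN2, an endoplasmic reticulum protein that takes part in the turnover of sterol enzymes, rose from 6.42 and 5.95 FPKM to 10.2 and 9.65 FPKM (0.60, unadjusted p = 0.00813, adjusted p = 0.807 by limma). INSIG2, the relative of INSIG1, was at 9.63 and 10.5 FPKM with si-NC and at 10.8 and 10.5 FPKM with si-152. The proteases that cut SREBP, MBTPS1 and MBTPS2, were at -0.25 and 0.15.

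Of 23 tested genes in the list of other fatty acid synthesis genes, 2 fell and 0 rose, with a median of -0.01. ELOVL7, an elongase of long-chain fatty acids, fell from 11.5 and 9.06 FPKM to 6.46 and 6.64 FPKM (-0.57, unadjusted p = 0.0145 by limma). MECR, the enoyl reductase of mitochondrial fatty acid synthesis, fell from 11.2 and 12.1 FPKM to 7.70 and 8.60 FPKM (-0.46, unadjusted p = 0.0277 by limma). Of 27 tested genes of fatty acid oxidation, the opposite route, 0 rose and 0 fell, with a median of -0.01. The medians of these 6 lists lay between -0.04 and 0.06, against 0.02 for all tested genes. For the 30 tested genes of the set the median was -0.15, and for their 18 sterol synthesis enzymes -0.19. Of the 27 oxidation genes, 8 had both si-152 libraries below both si-NC libraries and 4 above. Of the 20 genes of sterol uptake, transport and storage, 6 lay below and 3 above. In the remaining lists between 1 and 3 genes lay below and 3 or 4 above. Among the 30 genes 12 lay below and 1 above, and among all tested genes 13.9% and 16.5%. The difference between the lists was not tested.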

How the data were processed

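RNA of 4 HCT116 cultures was sequenced by the authors, and a table with 1 value per gene symbol was deposited for each library. The submitters' processing notes name the build GRCh38 and Trimmomatic, TopHat, HISAT2, HTSeq and DESeq, without roles, and which of them gave the values is not given in the sources used here. The deposited values were taken as FPKM from their decimals, their zeros and their unequal sums. Among the symbols, 28 look like dates and 2 occur again. The authors tested read counts, which were not used here. The values were therefore put on the scale of log2(FPKM + 1), without further scaling, and fitted with limma (version 3.58.1, R 4.3.3), with a prior variance that followed the mean level, over the 11222 genes that reached 1 FPKM in 2 or more libraries. With 2 libraries in each group, a gene's own spread had 2 degrees of freedom, against 7.53 for the prior variance from all genes. The p-values therefore rest mostly on that prior and less on the spread of the gene itself. An exact permutation test cannot go below 0.333. Depth is unknown, so no counting error is given.

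Groups and replicate numbers came from the labels. The genes named are the 31 members and each tested gene of 6 further lists with an unadjusted p under 0.05. A few others of these lists, and the 4 promoters shown, were chosen after their values were seen. The members and lists were chosen with earlier results of these data known. Alternatives changed the pseudocount, the filter, the scaling, the variance trend and the block, and left out each library. Exon overlaps came from GENCODE v29, and promoters from RefSeq.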

Additional observations from a re-analysis of the deposited data

How the results depend on the processing

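Of 330 refits of single members, 277 kept their direction and side of the threshold, 10 lost the threshold, 17 gained it and 26 changed sign. ACAT2 passed at an unadjusted p under 0.05 in all 11 alternatives (adjusted p from 0.0519 to 1.00 by limma), HSD17B7 in 10, EBP in 7 and SQLE in 6. Besides the libraries named above, EBP and SQLE lost the threshold with size factors (unadjusted p = 0.0531 and 0.0526) and without the filter (0.0774 and 0.0524), and SQLE without the trend (0.0656), while FDFT1 passed without the filter (0.0391). With 1 library left out, limma took the variance of each gene wholly from the trend with the mean level over all genes. The p-values of these fits, here and above, therefore do not use the gene's own spread. The causes of these changes were not tested.

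The labels do not say that replicate numbers mark a shared culture, but the same-numbered libraries moved together about their group means (correlation 0.52 across tested genes, 0.71 across the 30 members). With the replicate block, 12 members fell (unadjusted p from 0.00037 to 0.046 by limma) and 0 had an adjusted p under 0.05. Beside ACAT2, HSD17B7, EBP and SQLE these were MVK, IDI1, FDFT1, MSMO1, STARD4, SCD, ACLY and ELOVL6, the last 3 of them among the 7 fatty acid synthesis genes. Over all tested genes the block gave 912 lower, 981 higher and 78 with an adjusted p under 0.05. Over the other 6 lists it gave 14 lower and 6 higher, against 5 and 2 without it. Of these, fatty acid oxidation held 6 lower and 0 higher, against 0 and 0 without the block. OSBPL5 then had an adjusted p of 0.0359 (limma). An adjusted p under 0.05 held for 1 gene with a pseudocount of 0.1, without the filter, with size factors, with quantile normalization and without the trend. It held for 0 genes with at least 1 FPKM in every library (limma; 254 lower and 204 higher genes had an unadjusted p under 0.05), and for 45 to 78 with 1 library left out. Without the filter, 434 genes were lower and 362 higher. With 1 library left out, 129 to 518 were lower and 157 to 423 higher.

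With 1 library left out, the median of all members lay between -0.23 and -0.15, that of the sterol steps between -0.30 and -0.087, that of SREBP control between -0.17 and 0.074 (0.074 without si-NC replicate 1), and that of fatty acid synthesis between -0.35 and -0.050 (-0.25 without the filter, with ACACA). With size factors 0 members lay above si-NC without overlap, SC5D was at -0.012 and DHCR7 at -0.011. With quantile normalization CYP51A1 was at 0.0039, SC5D at -0.034 and SREBF1 at 0.04. With 1 library left out, the sign changed for PMVK (-0.090 to 0.44), MVD (-0.28 to 0.14), FDPS (-0.20 to 0.018), LSS (-0.087 to 0.40), CYP51A1 (-0.20 to 0.19), TM7SF2 (-0.28 to 0.13), SC5D (-0.23 to 0.24), DHCR7 (-0.043 to 0.061), SREBF1 (-0.084 to 0.082), SREBF2 (-0.23 to 0.074), FASN (-0.0010 to 0.43), FADS1 (-0.35 to 0.074) and FADS2 (-0.19 to 0.0066).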
